A study of Nicotiana tabacum with 8 samples.

Results

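The genes described here are 4 tomato genes of the GABA pathway onto which reads of tobacco shoot tips were counted, namely the glutamate decarboxylase genes GAD1 (Solyc03g098240), GAD2 (Solyc11g011920) and GAD3 (Solyc01g005000) and the GABA transaminase gene GABA-T1 (Solyc07g043310). They were chosen by their Solyc numbers, and each of the 4 matched 1 of the 34725 coding sequences listed in the files. The names are those by which the tomato genes were picked, since the files give only the numbers. Tobacco (Nicotiana tabacum, cultivar Samsun) seedlings, 6 days in culture at the start, were grown for 10 days in closed vessels of 3 seedlings, either alone (4 control libraries, numbered 9 to 12) or with volatiles of the fungus Cladosporium sphaerospermum strain TC09 (4 TC09-exposed libraries, numbered 13 to 16). All seedlings stood on the same sucrose-containing Murashige and Skoog medium. Total RNA was taken from the apical meristem with the terminal leaves, so each value is an average over several tissues, in which fewer cells of a type and less RNA per cell cannot be told apart.

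GABA (gamma-aminobutyric acid) is an amino acid that is not built into proteins. In plants, cytosolic glutamate decarboxylases make it from glutamate with release of carbon dioxide, and many of these enzymes are activated by calcium and calmodulin. A mitochondrial GABA transaminase then passes its amino group to pyruvate or glyoxylate and leaves succinic semialdehyde, which is oxidized to succinate and enters the tricarboxylic acid cycle. This route from glutamate to succinate, the GABA shunt, is known for its response to stress and for its links between nitrogen and carbon metabolism. In tomato, GAD2 and GAD3 are known for GABA accumulation in fruit, and silencing of GABA-T1 is known to raise GABA and to give dwarf plants.

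None of the 4 genes differed between TC09-exposed and control seedlings by edgeR's quasi-likelihood test (adjusted p above 0.05 after Benjamini-Hochberg adjustment over 19325 tested genes). All 4 passed the filter on low counts. The background share of genes called in this comparison was 21.5%. No member was called at an unadjusted p under 0.05 either, and DESeq2 and limma-voom also called 0 of the 4. The libraries of the groups overlapped in all 4 genes, and over all genes tested they did not overlap in 25%. With only 4 genes, neither count of 0 sets them apart from these shares. The median log2 fold change of the 4 genes was 0.064, against 0.012 over all genes tested, and the median size of the change without its sign was 0.23, against 0.26.

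The libraries held 7853857 to 9674090 total gene reads, of which 4.62% to 5.59% matched more than 1 gene. Fitted after scaling by total library size only, lower genes made up 35.2% of the genes called over the whole table, in place of 55.6% with the scaling used here (TMM, trimmed mean of M-values), and all genes together had a median log2 ratio of 0.11 in place of 0.012. Genes that mark the cell types of a shoot tip carry no names in the files and were not analysed here.

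GABA-T1 and GAD2 stood far above GAD3 and GAD1 in both groups, by more than any of the 4 genes changed between the groups. Levels of different genes were compared per coding length, as deposited TPM (transcripts scaled to a sum of 1e6 per library), over coding lengths of 1455 to 1548 bases. In the control, GABA-T1 stood at 153.2 ± 24.9 TPM, GAD2 at 128.4 ± 25.1 TPM, GAD3 at 5.11 ± 1.87 TPM and GAD1 at 1.63 ± 0.835 TPM (SD, n = 4 each). In the TC09-exposed libraries the same order was 159.02 ± 43.8, 158.4 ± 47.4, 6.63 ± 1.68 and 1.28 ± 0.367 TPM (SD, n = 4 each). TPM carries no TMM scaling, so the groups are compared below on TMM-scaled counts. The mean of GABA-T1 was higher after exposure in TPM but lower in those counts. GABA-T1 and GAD2 were neighbours that did not differ beyond their spread, with GABA-T1 the higher in 6 libraries and GAD2 the higher in the other 2, exposed libraries 14 and 16. The step from GAD2 down to GAD3 was 21.0-fold to 29.9-fold, and GAD3 was 1.57-fold to 7.54-fold above GAD1, in each of the 8 libraries. Among the 26833 coding sequences with at least 1 read, 96.3% had a lower control mean TPM than GABA-T1, 95.6% a lower one than GAD2, 46.0% a lower one than GAD3 and 30.9% a lower one than GAD1. All these levels are of tobacco reads on tomato sequences, where similar copies are counted together and diverged copies lose reads. How far this shaped the steps between genes was not tested.

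**Figure D1:**
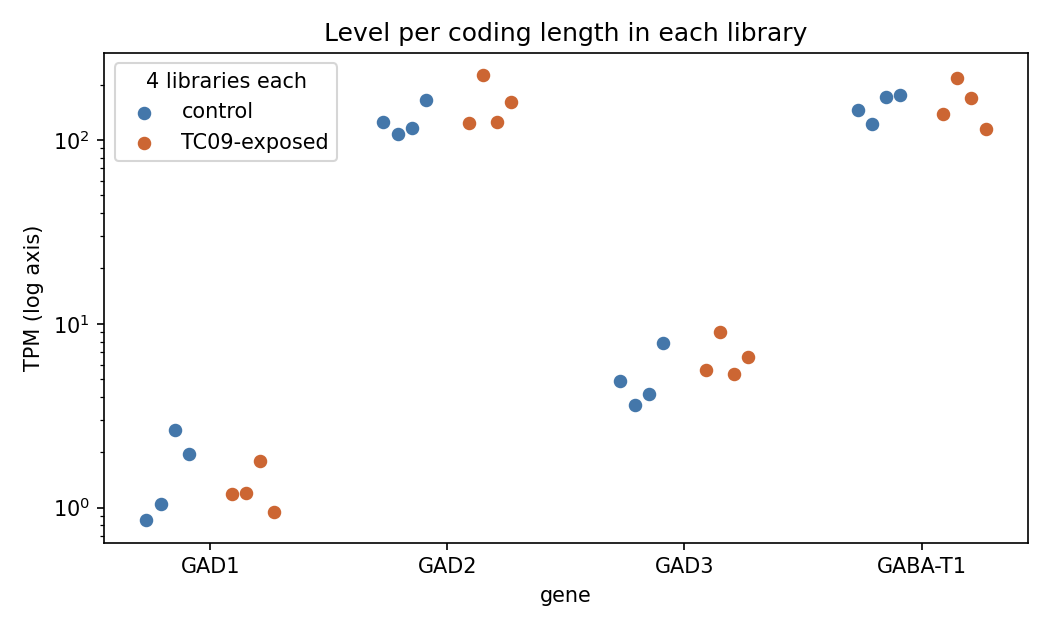
Level of each of the 4 genes in TPM on a log axis, with 1 point per library (4 control and 4 TC09-exposed). GABA-T1 and GAD2 lie together at the top, GAD3 stands 21.0-fold to 29.9-fold below GAD2, and GAD1 is lowest in every library.

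GAD2 carried nearly all of the glutamate decarboxylase signal summed over the 3 GAD genes. Its share of their summed TPM was 95.1 ± 0.777% in the control and 95.1 ± 0.533% in the TC09-exposed libraries (SD, n = 4 each), and it lay between 94.4% and 95.9% in all 8. GAD3 made up 3.70 ± 0.565% in the control and 4.02 ± 0.202% after exposure, and GAD1 1.22 ± 0.659% and 0.837 ± 0.396% (SD, n = 4 each). The groups overlapped in all 3 shares. These shares are over the 3 genes only, which were given by number. No source used here says which other numbers are glutamate decarboxylase genes, so none was analysed. The share of GAD2 among all such genes is therefore not known, and reads on any further one would lower it. The shares are also of tobacco reads counted on tomato sequences, where diverged copies lose reads. They need not be the shares of the tobacco transcripts, and this was not tested.

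The changes with exposure are given as CPM (counts per 1e6 reads after TMM scaling). In the control libraries GAD2 was at 214.7 CPM in library 9, 187.7 in library 10, 187.8 in library 11 and 262.0 in library 12. In the TC09-exposed libraries it was at 193.7 CPM in library 13, 315.8 in library 14, 192.7 in library 15 and 271.4 in library 16. Exposed libraries 14 and 16 lay above every control, and libraries 13 and 15 lay among the lower controls, so the exposed group was spread more widely than the difference between the means. The means were 213.04 ± 35.0 CPM and 243.4 ± 60.7 CPM (SD, n = 4 each). The fold was 1.14 with a 95% interval of 0.868 to 1.50 (0.19 ± 0.179 as log2 fold change and standard error, edgeR adjusted p = 0.475). Without exposed library 14 the log2 fold change was 0.042. With 1445 to 2822 reads per library, counting error alone gives a coefficient of variation of 2.35% in the control, where the observed one was 16.4%.

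GAD3, the one with fewer reads of the fruit-associated pair, followed a similar order of libraries. Its control levels were 8.00 CPM in library 9, 6.05 in library 10, 6.50 in library 11 and 11.99 in library 12. The TC09-exposed levels were 8.44 CPM in library 13, 12.2 in library 14, 7.94 in library 15 and 10.7 in library 16. Control library 12 stood with the highest exposed library, and all 4 exposed libraries lay above the control median of 7.25 CPM. From 8.13 ± 2.71 CPM in the control to 9.81 ± 1.98 CPM after exposure (SD, n = 4 each), the fold was 1.20 with a 95% interval of 0.840 to 1.71 (0.26 ± 0.232 as log2 fold change and standard error, edgeR adjusted p = 0.451). Without control library 12 the log2 fold change was 0.51, with an unadjusted p of 0.0282 and an adjusted p of 0.110 (edgeR; adjusted p of 0.110 to 0.705 over the 14 alternative settings). These values rest on 50 to 109 reads per library.

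GAD1 had the fewest reads of the 4 genes, with 12 to 33 per library. In the control it had 1.45 CPM in library 9, 1.83 in library 10, 4.29 in library 11 and 3.11 in library 12. After exposure it had 1.86 CPM in library 13, 1.68 in library 14, 2.78 in library 15 and 1.59 in library 16. All 4 exposed values fell inside the range of the controls, whose highest library was 2.95-fold above the lowest. The means were 2.67 ± 1.29 CPM and 1.98 ± 0.547 CPM (SD, n = 4 each). The fold of 0.751 had an interval of 0.437 to 1.29, the widest of the 4 genes on the log2 scale (-0.41 ± 0.353 as log2 fold change and standard error, edgeR adjusted p = 0.433). It was -0.096 on the log2 scale without control library 11 and -0.63 without exposed library 15. The observed coefficient of variation was 48.4% in the control, where counting error alone gives 21.2%, and 27.7% in the exposed libraries, where it gives 23.2%.

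GABA-T1, which encodes the enzyme that consumes GABA, had 1742 to 2775 reads per library. Summed over each group its reads were the most of the 4 genes, although GAD2 had more in libraries 14 and 16. The control libraries held 254.4 CPM of GABA-T1 in library 9, 216.9 in library 10, 283.05 in library 11 and 286.3 in library 12. The TC09-exposed libraries held 221.7 CPM in library 13, 310.6 in library 14, 265.8 in library 15 and 197.4 in library 16. The highest and the lowest of all 8 values were both in exposed libraries, and the controls lay between them. With 260.2 ± 32.2 CPM in the control and 248.8 ± 50.0 CPM after exposure (SD, n = 4 each), the fold was 0.956 with a 95% interval of 0.759 to 1.21 (-0.064 ± 0.150 as log2 fold change and standard error, edgeR adjusted p = 0.793). This near-zero value had no stable sign, since it was 0.041 after scaling by total library size only and 0.047 without exposed library 16, both with adjusted p above the threshold (0.885 and 0.851, edgeR).

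**Figure D2:**
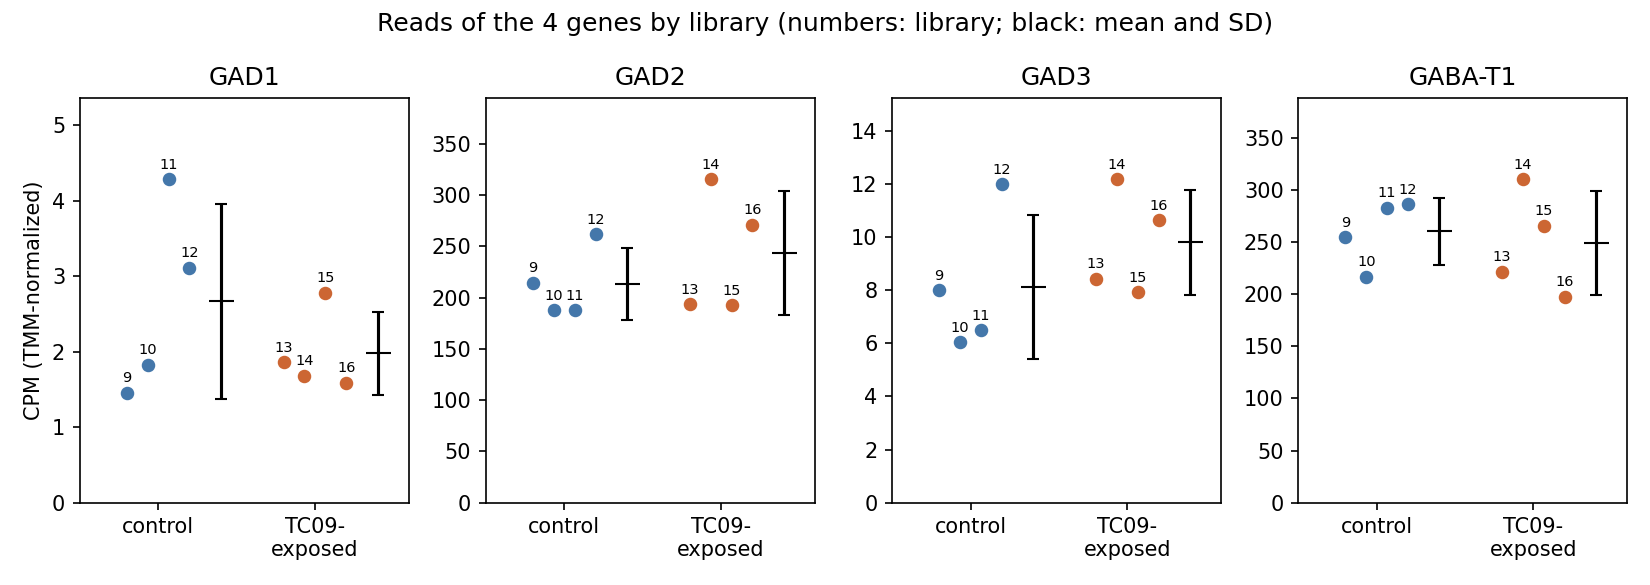
CPM after TMM scaling of the 4 genes in each library, with the library number beside each point and the mean with its SD in black (n = 4 per group). Control and exposed points overlap in every panel, and exposed library 14 is the highest of the 8 in GAD2, GAD3 and GABA-T1.

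The 95% intervals set limits on the changes these libraries allow. The upper ends, from 1.21-fold for GABA-T1 to 1.71-fold for GAD3, lie below a doubling for all 4 genes. The lower ends, 0.868 for GAD2, 0.840 for GAD3 and 0.759 for GABA-T1, are far from a halving. For GAD1 the lower end of 0.437 lies beyond a halving, so such a fall is within its interval. Changes within these intervals cannot be told from no change here, and a p above the threshold does not show that the levels were equal.

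**Figure D3:**
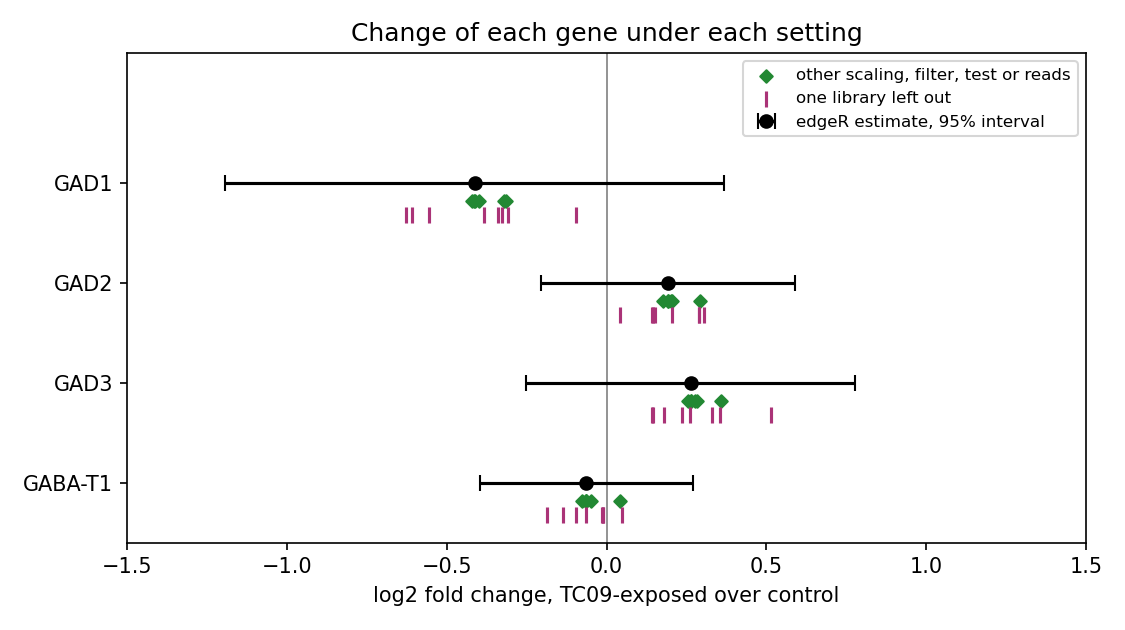
Log2 fold change of TC09-exposed over control for each gene, with the edgeR estimate and its 95% interval in black, the values under other scaling, filter, test or read choices as diamonds, and those with 1 library left out as ticks. The intervals of all 4 genes include 0, and GAD1 has the widest, from -1.20 to 0.37.

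GAD2 and GAD3 varied together from library to library, more closely than either did with the other members. Over the 8 libraries Pearson's r of their log2 CPM was 0.91 (Spearman's rho 0.95), and r was 0.89 over the 6 libraries left without the 2 in which GAD2 was farthest from its median. Control library 12 and exposed libraries 14 and 16 were the 3 highest in both genes. Only 22 of the other tested genes had a higher r with GAD2 than GAD3 had. The 2 genes share the sequencing depth and scaling of each library, and 6.26% of GAD2 reads and 7.22% of GAD3 reads also matched another gene. With unique reads alone r was 0.90. GABA-T1 followed GAD2 less closely (r = 0.27, 0.50 over the 6 libraries without the 2 farthest in GAD2), and GAD1 ran weakly against GAD2 (r = -0.33). These values are descriptions over 8 libraries of both groups and were given no test.

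**Figure D4:**
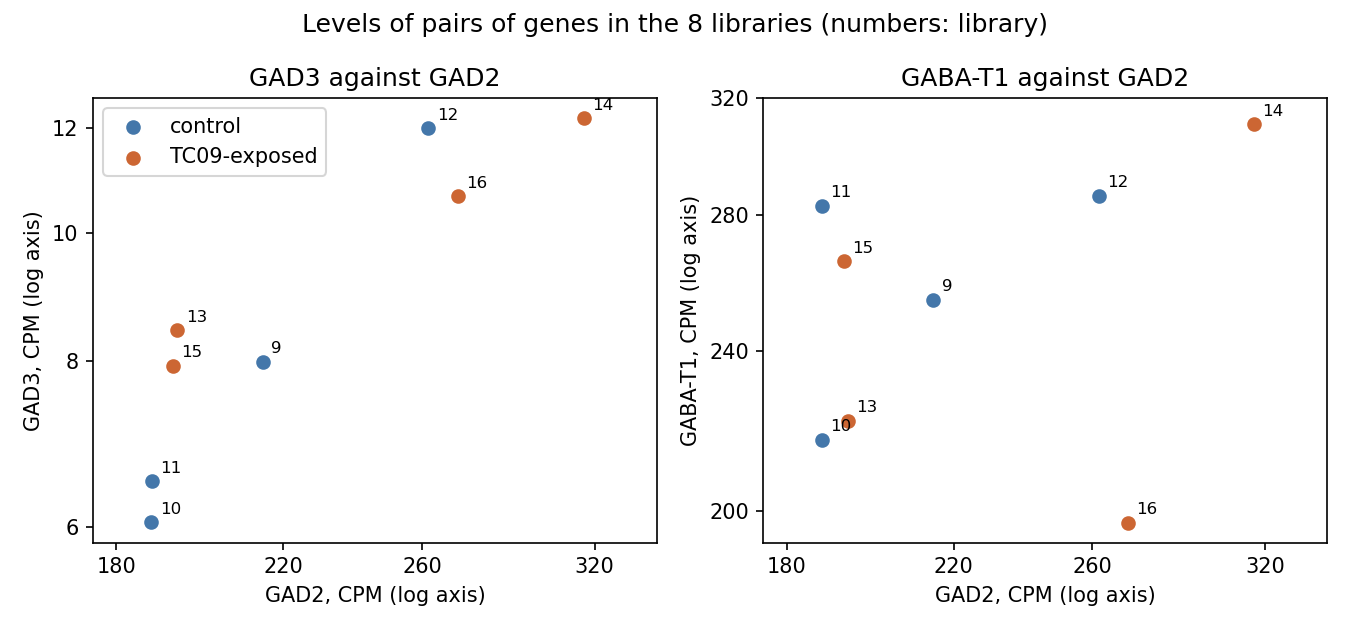
CPM of GAD3 (left) and of GABA-T1 (right) against CPM of GAD2 on log axes, with 1 numbered point per library. GAD3 rises with GAD2 through both groups (r = 0.91, n = 8), while GABA-T1 in exposed library 16 is the lowest of all 8 although GAD2 is high there (r = 0.27, n = 8).

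The ratio of GABA-T1 to the summed GAD genes, a measure within each library that no scaling between libraries affects, also overlapped between the groups. In TPM it was 1.11 in library 9, 1.08 in library 10, 1.39 in library 11 and 1.01 in library 12 of the control. In the TC09-exposed libraries it was 1.06 in library 13, 0.919 in library 14, 1.27 in library 15 and 0.679 in library 16. Libraries 14 and 16 lay below every control, and libraries 13 and 15 lay within the control range. The means were 1.15 ± 0.168 and 0.983 ± 0.250 (SD, n = 4 each), so the difference was smaller than the spread within either group.

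The tested genes most like each member over the 8 libraries were found by Pearson's r of log2 CPM. They were Solyc04g016540 for GAD1 (r = 0.95), Solyc06g005360 for GAD2 (r = 0.99), Solyc07g063700 for GAD3 (r = 0.96) and Solyc05g055090 for GABA-T1 (r = 0.98). None of the 4 passed the test between the groups, which 21.5% of all genes tested did. Their log2 ratios of exposed to control were -0.25, 0.10, 0.25 and -0.020 (edgeR adjusted p of 0.607, 0.512, 0.536 and 0.879). Each was picked to follow a member that was itself not called over the same 8 libraries, so this outcome follows largely from the choice. Each r is over libraries that share depth and scaling, and it was picked as the highest of 19324 values for each member. The files give no names for these numbers.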

How the data were processed

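Reads were quality-trimmed and aligned by the authors to tomato in CLC Genomics Workbench (version 10, defaults). Per library, the deposited counts are whole numbers of total and of unique gene reads for each coding sequence. The deposited TPM values divide total gene reads by coding length and scale them to a sum of 1e6. Tobacco copies that resemble 1 tomato gene are therefore counted together, and diverged copies lose reads. No source used here gives the annotation release. Groups were taken from the source names, since the treatment text of the labels describes culture without exposure for all 8 libraries. A replicate is 1 plant according to the paper, and the 3 pooled seedlings of 1 vessel according to the labels. If plants shared a vessel they were not independent exposures, and the p-values measure only the spread between these libraries.

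The test on total gene reads used edgeR (version 4.0.16, R version 4.3.3): filterByExpr defaults (count of at least 10 in the median library, total of at least 15), TMM, a quasi-likelihood fit with condition as its only term, and Benjamini-Hochberg adjustment over all tested genes. Standard errors are the size of the log2 fold change over the square root of F, and 95% intervals use the t distribution of the fit. DESeq2 (version 1.42.0), limma-voom (limma version 3.58.1), other scalings, no filter, unique reads and leaving out each library were the alternatives. The 4 genes and the rule for the most alike genes were chosen with earlier results of these data known. Further pathway genes were not reported, because no table used here annotates their numbers. Shares, ratios and correlations were given no test.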

Additional observations from a re-analysis of the deposited data

How the results depend on the processing

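None of the 4 genes reached an adjusted p of 0.05 under any of the 14 alternatives, where adjusted p ran from 0.266 to 0.878 for GAD1, 0.285 to 0.868 for GAD2, 0.110 to 0.705 for GAD3 and 0.314 to 0.978 for GABA-T1. GAD1, GAD2 and GAD3 kept their direction in all 14. With 1 library left out, the log2 fold changes ran from -0.63 to -0.096 for GAD1, 0.042 to 0.31 for GAD2, 0.14 to 0.51 for GAD3 and -0.19 to 0.047 for GABA-T1. GABA-T1 turned positive without exposed library 16 (0.047) and after scaling by total library size only (0.041), a scaling that moved the median of all genes from 0.012 to 0.11, and GABA-T1 lay below that median under both scalings. Over the whole table, 4164 genes were called, and 2636 to 5438 with 1 library left out; the counts were 2636 without control library 9, 2648 without control library 11 and 2741 without exposed library 13, and 5438 without exposed library 14, and the cause was not tested. Labels share no library numbers between the groups, so no pairing was fitted. GAD1 has the fewest reads (12 to 33 per library), and its controls varied more than counting error gives (48.4% against 21.2%).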
